A study of Mus musculus with 6 samples.

Results

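The suppressors of cytokine signalling are the feedback inhibitors of the JAK-STAT pathway, and the 8 genes of the mouse family, Socs1 to Socs7 and Cish, were taken by symbol from the 53700 genes of the RNA-seq table of SL4 cells. Each symbol named a single identifier. SL4 is a mouse line that expresses luciferase and is described as colorectal cancer (CRC). The pLV-SEMA6A group (n = 3 libraries) carries a lentivirus that stably overexpresses SEMA6A, a transmembrane semaphorin, and the pLV-Control group (n = 3 libraries) does not overexpress it. The labels call the controls only cells without overexpression, and no source used here describes a separately made second line of either kind, so the p-values measure the spread between libraries of 1 line each, and SEMA6A overexpression cannot be told apart from another difference between the lines.

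Cytokines bind receptors that carry JAK kinases, the JAKs phosphorylate STAT transcription factors, and the STATs switch on genes that include members of this family. The proteins then act back on the receptor or the JAK. All of them hold an SH2 domain, which binds phosphotyrosine, and a C-terminal SOCS box, which recruits elongins B and C and a cullin to form a ubiquitin ligase. SOCS1 and SOCS3 also block JAK activity directly through a short kinase inhibitory region. CIS (the product of Cish) and SOCS2 are best known as brakes on STAT5 and on growth hormone signalling, and SOCS4 to SOCS7, whose N-terminal parts are long, have been tied mainly to receptor tyrosine kinases and the insulin pathway.

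The promoters of Socs3 and Cish are shown because each held letters that STAT factors are known to read. The search covered 4 of the 8 members, and says nothing about the promoters of the others. RefSeq windows (build GRCm38.p6) from 250 bases before to 50 after the annotated start were used for Socs1, Socs3, Socs4 and Cish. They were searched for TTCNNNGAA, the core that STAT dimers bind, which reads the same on both strands. The runs below are 5′ to 3′ on the strand of the gene, end 30 bases after the start, and carry the matches in capitals. Socs3 is at chr11:117969337-117969616 on the minus strand, and Cish at chr9:107296409-107296688 on the plus strand.
Socs3: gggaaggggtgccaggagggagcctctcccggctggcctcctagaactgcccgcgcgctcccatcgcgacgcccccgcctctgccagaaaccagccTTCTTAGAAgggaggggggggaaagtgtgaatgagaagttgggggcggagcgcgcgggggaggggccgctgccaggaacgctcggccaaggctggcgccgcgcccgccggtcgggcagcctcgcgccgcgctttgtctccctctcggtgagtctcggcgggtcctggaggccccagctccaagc
Cish: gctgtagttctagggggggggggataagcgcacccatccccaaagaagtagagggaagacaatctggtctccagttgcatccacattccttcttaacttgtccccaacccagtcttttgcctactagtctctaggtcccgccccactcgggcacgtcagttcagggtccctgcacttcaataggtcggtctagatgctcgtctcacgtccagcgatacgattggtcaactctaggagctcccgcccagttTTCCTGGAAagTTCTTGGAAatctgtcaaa
The Socs3 window held 1 TTCNNNGAA match, 154 bases before the start. The Cish window held 2, beginning at bases 1 and 12 from the start. These distances are from the RefSeq starts. In the GENCODE annotation the genes begin further upstream, at 117970047 for Socs3 and 107296026 for Cish. Under that annotation both printed windows lie inside the genes, not before them. The Socs1 and Socs4 windows held none. Over all 32851 promoter windows of this length, 8.3% held TTCNNNGAA. A match describes the letters in these windows, and binding was not measured.

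Before the family is described, the libraries need a word. Sema6a was listed at 0 in each of the 3 pLV-Control libraries but at 98.7, 118 and 112 TPM in those labelled pLV-SEMA6A, the direction of the labels. TPM is a transcript abundance divided by transcript length and scaled to a common sum, and the deposited columns summed to 977400 to 986444. It keeps no sequencing depth, so no counting interval could be given. The line did not show its epithelial label: none of 10 markers of colon or simple epithelium reached a mean of 1 TPM, Epcam, Cdx1 and Cdx2 were listed at 0 in every library, and the summed level of the 10 was 0.13 to 0.71 TPM without and 0.25 to 0.58 TPM with overexpression. Leukocyte and endothelial markers were also low, with summed levels of at most 0.80 TPM. Of 8 fibroblast and mesenchymal markers, 6 reached 1 TPM, and their sum was 159 to 173 TPM without and 274 to 286 TPM with overexpression. Acta2 (means of 31.2 and 94.1 TPM), Col3a1 (119 and 172 TPM) and Col1a1 were higher, while Pdgfrb (10.5 and 6.66 TPM) and Pdgfra (1.76 and 0.78 TPM) were lower. Whether these differences bear on the family was not tested.

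All 8 members were detected, and the family split by the length of the protein. Socs4, Socs5, Socs6 and Socs7, whose longest annotated coding sequences encode 436, 536, 533 and 579 residues, lay at 10.5 TPM or more in every library. Socs1, Socs2, Socs3 and Cish, with 212, 198, 225 and 257 residues, lay at 8.54 TPM or less. The short members made up 15.7% to 17.0% of the summed TPM of the family in pLV-Control and 12.4% to 13.7% in pLV-SEMA6A. The sum itself overlapped between the groups, with 94.05 to 98.9 TPM in pLV-Control against 94.7 to 99.9 TPM in pLV-SEMA6A.

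In pLV-Control the order of the levels was Socs6 (mean 35.4 TPM), Socs5 (19.9), Socs4 (14.4), Socs7 (11.0), Socs3 (7.27), Socs2 (4.38), Socs1 (2.98) and Cish (1.15), and neighbours in this order did not overlap between libraries. In pLV-SEMA6A, Socs7 (12.1) stood above Socs4 (11.3), and Socs1 (3.70) above Socs2 (2.73). The first of these exchanges rests on a narrow gap, since the lowest Socs7 library was at 11.46 TPM and the highest Socs4 library at 11.41 TPM. For scale, the median of the 12510 genes tested was 18.9 TPM in pLV-Control against 17.6 TPM in pLV-SEMA6A, so only Socs6 and Socs5 lay above it in either group.

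**Figure D1:**
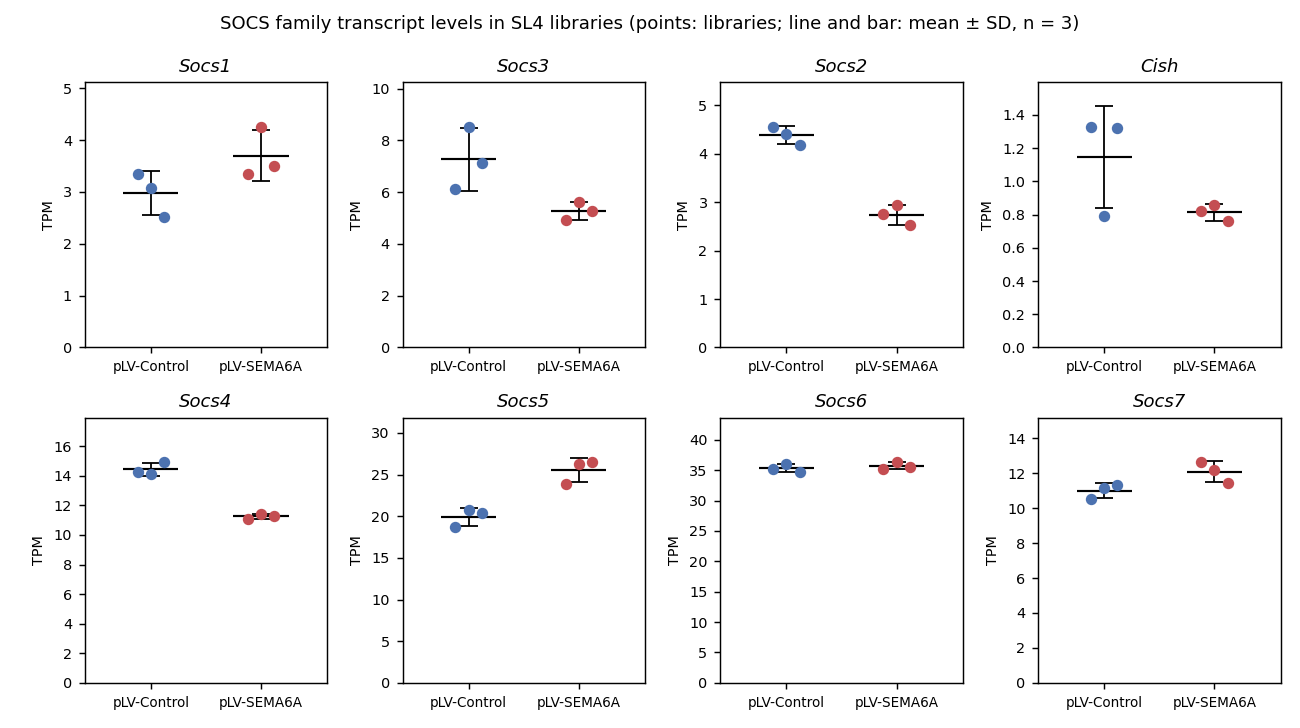
TPM of the 8 SOCS family genes in each library, 1 panel per gene with its own axis from 0. Points are libraries, and the line and bar are the mean ± SD (n = 3). Socs2, Socs3 and Socs4 sit lower and Socs5 and Socs7 higher in every pLV-SEMA6A library, while Socs1, Cish and Socs6 overlap between the groups.

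The groups were compared on log2(TPM + 1) with limma, with p-values adjusted over the 12510 genes that had a mean of at least 1 TPM, a scale on which the change of low genes is understated. Of the 8 members, 7 were tested, because Cish had a mean of 0.98 TPM. With an adjusted p under 0.05, 3 members were lower in pLV-SEMA6A (Socs2, Socs3 and Socs4), 1 was higher (Socs5), and 3 did not pass (Socs1, Socs6 and Socs7). Of all genes tested, 28.2% were lower, 19.5% higher and 47.6% either, so the share of the family that passed was near the background. The median log2 fold change was 0.02 over the 7 members and −0.06 over all genes tested. Only Socs2 also passed a minimum absolute log2 fold change of 0.5, as 15.9% of all genes did.

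The TPM level itself shifts between the groups, and this touches the family. The library medians of log2(TPM + 1) were 0.09 lower in pLV-SEMA6A (difference −0.0932). When every library was centred on its median, Socs2 and Socs4 were lower and Socs5, Socs6 and Socs7 higher, against 19.8% of all genes lower and 26.9% higher, and Socs3 no longer passed. Socs2, Socs4 and Socs5 kept their direction and an adjusted p from limma under 0.05 in every alternative in which they were tested.

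**Figure D2:**
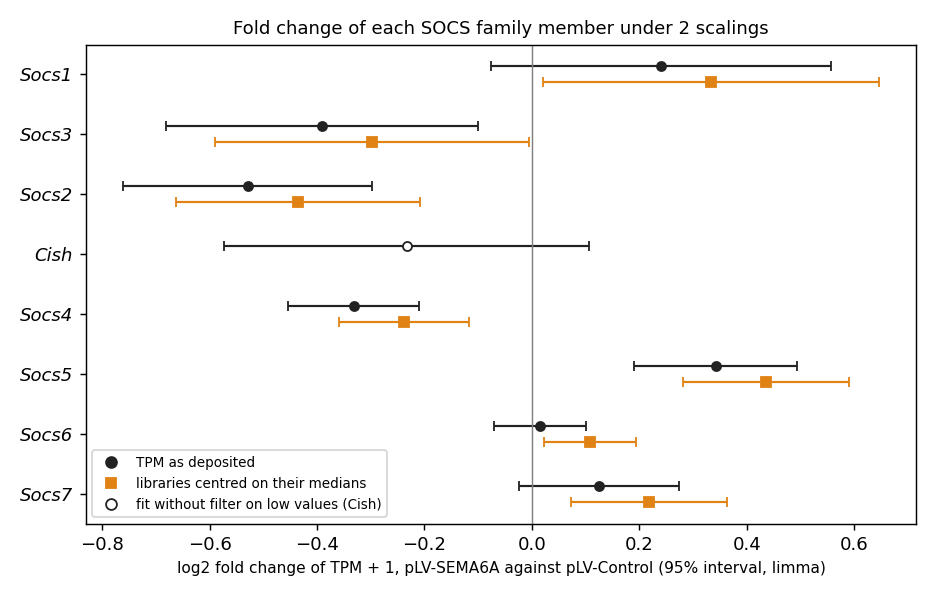
Log2 fold change of TPM + 1 between pLV-SEMA6A and pLV-Control for each member, with the 95% interval from limma, for TPM as deposited (circles) and with libraries centred on their medians (squares). The open circle is Cish in the fit without a filter on low values. Socs2, Socs4 and Socs5 lie clear of 0 under both scalings, and Socs3 reaches −0.10 and −0.0048 at its upper end.

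Of Socs1 and Socs3, the direct JAK inhibitors, only Socs3 passed the test. Socs3 acts at the gp130 receptor chain of the IL-6 family and is a classic STAT3 target. It was at 6.13, 8.54 and 7.14 TPM without SEMA6A overexpression (pLV-Control), against 4.92, 5.62 and 5.27 TPM with it (pLV-SEMA6A). The groups did not overlap, but the pLV-Control libraries differed among themselves by more than the gap between the groups. The mean of Socs3 fell by 27.5% (log2 fold change −0.39, standard error 0.12, adjusted p = 0.0365 from limma). When libraries were left out in turn, Socs3 missed the threshold in 5 of 6 cases (adjusted p up to 0.101, limma), and after median centring (adjusted p = 0.0886, limma).

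Socs1, which restrains interferon receptors and their JAKs, was at 3.35, 3.07 and 2.52 TPM without SEMA6A overexpression (pLV-Control), against 3.34, 4.26 and 3.50 TPM with it (pLV-SEMA6A). One pLV-Control library lay above the lowest pLV-SEMA6A library. The log2 fold change was 0.24, with a 95% interval from −0.08 to 0.56 (adjusted p = 0.178 from limma), so neither a small fall nor a rise by that upper bound lies outside these data. It did not pass in any alternative. The ratio of Socs1 to Socs3 within a library was 0.547, 0.360 and 0.353 in pLV-Control and 0.679, 0.758 and 0.664 in pLV-SEMA6A.

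Socs2 and Cish, the pair tied to STAT5, were both low. Socs2 was at 4.56, 4.41 and 4.18 TPM without SEMA6A overexpression (pLV-Control), against 2.75, 2.93 and 2.52 TPM with it (pLV-SEMA6A), with every pLV-SEMA6A library below every pLV-Control library. Its mean fell by 37.6%, the largest relative change among the tested members (log2 fold change −0.53, standard error 0.10, adjusted p = 0.00471 from limma). The fold minimum of 0.5 was met narrowly, and after median centring the log2 fold change was −0.44. Other genes, mainly Gm9847, hold 6.55% of the 31-base stretches of Socs2 transcripts.

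Cish was at 1.33, 0.79 and 1.32 TPM without SEMA6A overexpression (pLV-Control), against 0.82, 0.86 and 0.76 TPM with it (pLV-SEMA6A). The groups overlapped through pLV-Control replicate 2, which was as low as the pLV-SEMA6A libraries. In the fit without a filter on low values the log2 fold change was −0.23, with a 95% interval from −0.57 to 0.11 (adjusted p = 0.332 from limma). In all, 10.4% of the 31-base stretches of Cish transcripts also occur in other genes, mainly its antisense neighbour Gm17041, which was listed at means of 0 and 0.11 TPM.

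Socs4 and Socs5 are the closest relatives of each other, and both have been linked to the turnover of the EGF receptor. They moved in opposite directions. Socs4, on chromosome 14 of GRCm38 from 47276931 to 47296102, was at 14.2, 14.1 and 14.9 TPM without SEMA6A overexpression (pLV-Control), against 11.1, 11.4 and 11.3 TPM with it (pLV-SEMA6A). The groups were far apart for the small spread within each, and the mean fell by 22.0% (log2 fold change −0.33, standard error 0.05, adjusted p = 0.00225 from limma).

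Socs5, on chromosome 17 from 87107679 to 87137839, was at 18.7, 20.8 and 20.4 TPM without SEMA6A overexpression (pLV-Control), against 23.9, 26.3 and 26.5 TPM with it (pLV-SEMA6A). It was the single member that passed as higher at the deposited scaling, with a mean 28.1% above that of pLV-Control (log2 fold change 0.34, standard error 0.06, adjusted p = 0.00489 from limma), with every pLV-SEMA6A library above every pLV-Control library. Its transcripts share no 31-base stretch with other genes, and those of Socs4 share 0.526%. An exact two-sided permutation test of 3 libraries against 3 gave p = 0.1 for Socs2, Socs3, Socs4, Socs5 and Socs7, the smallest it allows, and the libraries of the groups did not overlap in 58.5% of all genes tested.

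The ratio of Socs5 to Socs4 within a library does not depend on how libraries are scaled. It was 1.31, 1.47 and 1.36 in pLV-Control and 2.15, 2.30 and 2.35 in pLV-SEMA6A, a difference of 0.72 on the log2 scale between ranges that were well separated. By contrast the ratio of Socs7 to Socs6 was 0.299, 0.309 and 0.326 against 0.359, 0.335 and 0.322, and overlapped. These paralogue ratios were chosen after the values were seen, and were not tested.

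**Figure D3:**
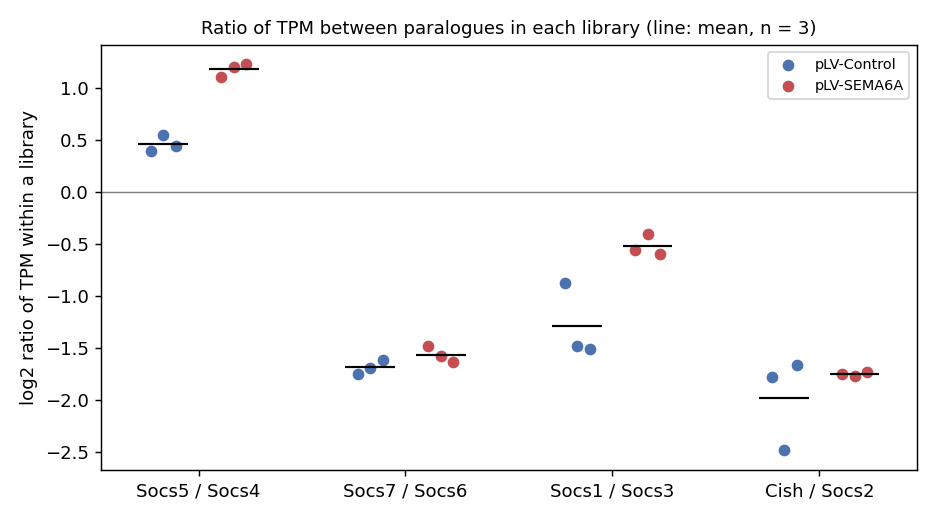
Log2 ratio of TPM between members of 4 paralogue pairs in each library (points), with the group mean (line, n = 3). Socs5 to Socs4 has a mean of 0.46 in pLV-Control and 1.18 in pLV-SEMA6A, and Socs1 to Socs3 of −1.28 and −0.52, both without overlap, while the other pairs overlap.

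Socs6 and Socs7, which bind insulin receptor substrates and KIT (SOCS6) or the adaptor NCK (SOCS7), did not pass the test. Socs6 was at 35.2, 36.1 and 34.8 TPM without SEMA6A overexpression (pLV-Control), against 35.2, 36.4 and 35.6 TPM with it (pLV-SEMA6A), and the libraries intermingled. The log2 fold change was 0.02, with a 95% interval from −0.07 to 0.10 (adjusted p = 0.753 from limma). After centring it was 0.11 (adjusted p = 0.0452, limma). Other genes, mainly Gm9449, hold 7.38% of the 31-base stretches of Socs6 transcripts. Socs7 was at 10.5, 11.2 and 11.3 TPM without SEMA6A overexpression (pLV-Control), against 12.7, 12.2 and 11.5 TPM with it (pLV-SEMA6A). Its groups lay next to each other without overlap, and the log2 fold change was 0.13, with an interval from −0.02 to 0.27 (adjusted p = 0.141 from limma). Centring brought Socs7 to 0.22 (adjusted p = 0.0249, limma).

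Several kinase and STAT genes above the family were lower in pLV-SEMA6A. All 3 JAK genes tested passed, with Tyk2 and Jak2 lower and Jak1 higher, and Jak3 was below the filter. Jak2, a kinase of the growth hormone and gp130 receptors, fell to 15.1 ± 0.41 TPM from 19.1 ± 0.67 TPM (SD, n = 3 each; log2 fold change −0.32; limma, adjusted p = 0.0024). Jak1 rose from 66.9 ± 0.77 to 76.2 ± 1.02 TPM (SD, n = 3 each; log2 fold change 0.19; limma, adjusted p = 0.0023). Of the STAT genes described here, Stat2, Stat3, Stat5a and Stat5b were lower, where 28.2% of all genes tested were lower. Stat2 fell from 58.7 ± 1.29 to 17.25 ± 1.45 TPM and Stat3 from 23.9 ± 2.79 to 18.1 ± 0.35 TPM (SD, n = 3 each), log2 fold changes of −1.71 and −0.38. Stat5a fell from 5.92 ± 1.52 to 2.48 ± 0.11 TPM and Stat5b from 10.6 ± 0.34 to 7.62 ± 0.79 TPM (SD, n = 3 each), log2 fold changes of −0.97 and −0.43. Stat6 did not pass, with a log2 fold change of 0.02, and Stat4 was listed at 0 throughout. Apart from Jak3, which the filter removed, these calls were the same after median centring.

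Set against their own STATs or receptor, members were compared as ratios within each library, with p-values adjusted over 5 pairs, of which 4 are given here. Socs3 was at 0.283, 0.316 and 0.310 of the Stat3 level in pLV-Control and at 0.278, 0.309 and 0.287 in pLV-SEMA6A, so the ratios overlapped (difference −0.06 on the log2 scale, exact two-sided permutation p = 0.4, adjusted 0.5). Cish to Stat5b differed by 0.02 (exact permutation p = 1) and Socs2 to Stat5b by −0.21 (exact permutation p = 0.2, adjusted 0.333), both with overlap.

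Socs3 relative to Il6st, the gp130 chain it binds, was 0.192, 0.257 and 0.220 in pLV-Control against 0.133, 0.159 and 0.151 in pLV-SEMA6A, a difference of −0.59 on the log2 scale without overlap. The exact two-sided permutation p was 0.1, the smallest possible, and 0.25 after adjustment.

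Of the ubiquitin ligase that the SOCS box recruits, all 9 listed genes were tested, and 5 were higher and 1 lower in pLV-SEMA6A, against 19.5% higher and 28.2% lower among all genes tested. In 7 of 13 alternatives 4 of the 9 were higher. The cullin Cul5, which pairs with SOCS proteins, rose to 34.7 ± 2.14 TPM from 25.5 ± 0.70 TPM (SD, n = 3 each; log2 fold change 0.43; adjusted p = 0.0011 from limma). Its RING partner Rnf7 rose from 55.6 ± 3.74 to 90.2 ± 11.8 TPM, and Ube2f, which loads NEDD8 onto CUL5, from 88.3 ± 2.31 to 109 ± 7.48 TPM (SD, n = 3 each). Rbx1 had a log2 fold change of 0.61 and Elob one of 0.14. Cul2 was lower (−0.16), though not after centring (adjusted p = 0.0977, limma), and Eloc, Arih2 and Nedd8 did not pass. The median over the 9 genes was 0.14, against −0.06 over all genes tested.

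**Figure D4:**
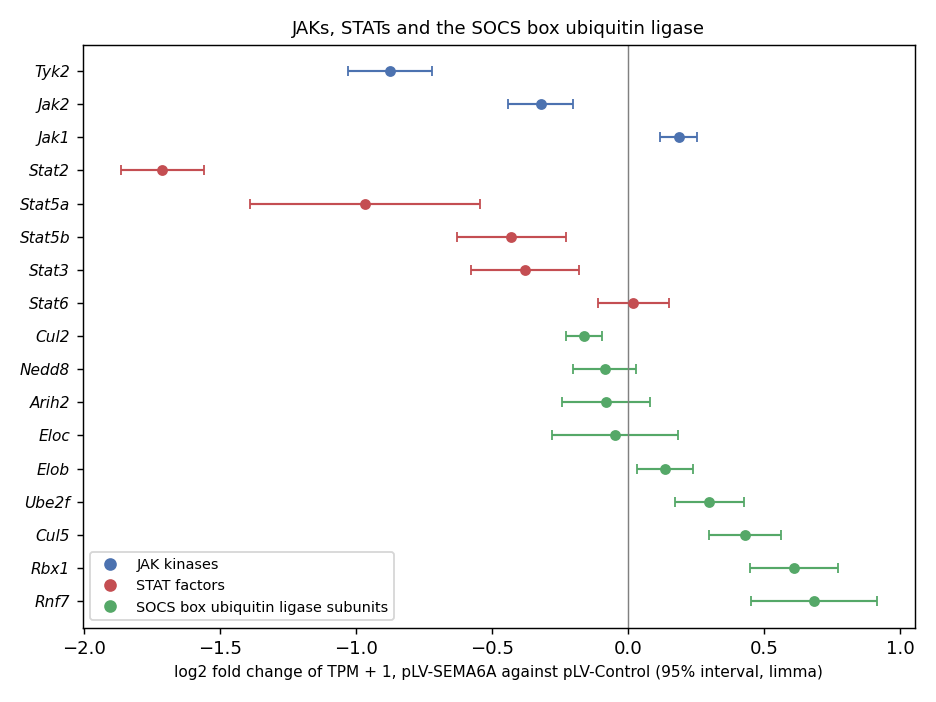
Log2 fold change of TPM + 1 between pLV-SEMA6A and pLV-Control, with the 95% interval from limma, for tested JAK genes, the STAT genes described here and subunits of the SOCS box ubiquitin ligase. Stat2 lies lowest, and Rnf7, Rbx1 and Cul5 highest.

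Of 24 receptor genes that feed this feedback loop, 17 were tested, 9 were lower and 3 higher, with a median log2 fold change of −0.18. Among all genes tested 28.2% were lower and 19.5% higher, with a median of −0.06. Ghr, the growth hormone receptor that SOCS2 targets, fell from 35.6 ± 2.13 to 21.5 ± 1.89 TPM, and Osmr, the oncostatin M receptor, from 9.24 ± 1.04 to 5.35 ± 0.05 TPM (SD, n = 3 each). Ifnar2 had a log2 fold change of −0.64 and Insr, the insulin receptor, one of −0.46. Il6st, Il6ra and Il10rb were the 3 that passed as higher, named here because they are so few. With any 1 library left out, 0 or 1 receptor passed as higher.

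Of 23 cytokine genes 7 were tested, of which 4 were lower (Il15, Il7, Il11 and Lif) and 1 higher (Clcf1), beside the same 28.2% and 19.5%. Il15, a STAT5-activating cytokine, fell from 13.7 ± 1.16 to 2.51 ± 0.69 TPM, and Clcf1, an IL-6 family ligand, rose from 24.8 ± 1.04 to 30.6 ± 3.43 TPM (SD, n = 3 each). Clcf1 did not pass without pLV-Control replicate 1 or replicate 3, or in the fit without a filter on low values (adjusted p = 0.0578, limma). Il6 was below the filter, at means of 0.54 and 0.30 TPM.

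Among 17 other inhibitors of the pathway 12 were tested, with 6 lower and 1 higher (Ptpn11, the phosphatase SHP2). The share that passed was not far from the 47.6% of all genes that passed in either direction. By direction, 28.2% of all genes were lower and 19.5% higher. Usp18, which removes ISG15 and blocks IFNAR2, had a log2 fold change of −2.27, Pias1 and Pias3, which bind STATs, −0.58 and −0.53, and the ubiquitin ligase Cbl −0.28. Of 14 adaptors and substrates of SOCS proteins, 12 were tested, with 6 lower and 2 higher (28.2% and 19.5% among all genes), but after median centring 1 was lower (Nck1, the SOCS7 partner) and 3 were higher. With each library left out, 1 to 3 adaptors were lower and 1 or 2 higher. Nck1 fell from 32.3 ± 1.47 to 24.6 ± 0.81 TPM and Rasa1, a Ras GTPase activator, rose from 35.8 ± 2.46 to 42.2 ± 1.01 TPM (SD, n = 3 each).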

How the data were processed

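RNA-seq of SL4 cells comprised 3 pLV-Control and 3 pLV-SEMA6A libraries. Poly-A mRNA was captured, fragmented and reverse transcribed with random primers. The authors deposited TPM for each library, rounded to 2 decimals, and group means that were not used. The submitters' processing notes name HISAT, Bowtie2 and RSEM and the mouse build mm39; versions and the annotation are not given in the sources used here, and neither is strandedness. The design assumed TPM, and no count test was possible. log2(TPM + 1) was fitted with limma 3.58.1 (R 4.3.3) with its trend option, the group as the only term and Benjamini-Hochberg adjustment. Exact permutation tests used SciPy 1.17.1. The code was tested on simulated data.

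The members, gene lists and tests were chosen with earlier results of these data known. Named genes are the members, the JAK, STAT and ligase lists, and up to 4 genes of each other list with an adjusted p under 0.05, a mean of at least 5 TPM, groups that do not overlap and the largest changes. For passing members with a mean of at least 5 TPM, the 2 genes closest in profile are also named. One gene that the rule names is not reported here. Genes outside that rule are marked or named for small counts. Positions are from GENCODE M21 (GRCm38), matched by identifier, and promoters from RefSeq on GRCm38.p6. Alternatives were another pseudocount, other filters and scalings, limma without trend, the replicate number as a block and leaving out each library.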

Additional observations from a re-analysis of the deposited data

How the results depend on the processing

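The count of 3 lower members became 2 with no filter on low values, with a filter at a mean of 5 TPM and with median-centred libraries. It was also 2 without each library except pLV-Control replicate 1. In no alternative did it vary by more than 1.5 times. The count of 1 higher member became 3 with median-centred libraries, where Socs6 and Socs7 passed. The count of 1 member past the fold minimum, Socs2, became 0 with a filter at a mean of 5 TPM, with median centring and with a minimum log2 fold change of 1, and was 0 to 1 when each library was left out, with 0 without pLV-SEMA6A replicate 3. Socs3 passed in 6 of 13 alternatives, with log2 fold changes from −0.49 to −0.28, and was lost without each library except pLV-Control replicate 1, with median centring and with no filter on low values (adjusted p = 0.0971, limma). With the replicate block 3 members were lower and 1 higher, the same 4 members. The numbers did not pair the libraries, since deviations from the group means correlated at −0.06 on average between libraries of the same number. The log2 ratio of Cish to Stat5b was 0.02, lay between −0.20 and 0.14 with libraries left out, and reversed to −0.20 without pLV-Control replicate 2 and to −0.07 without pLV-SEMA6A replicate 1. Of 208 recomputed list counts 35 moved by over 1.5 times, most of them for the adaptors and the receptors that were higher. TPM gives no depth, so the error of the low members Cish, Socs1 and Socs2 is known only from 3 libraries a group.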

Other observations

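Proteins outside the family also use a SOCS box to reach elongins and cullins, and 29 of their genes were listed, of which 17 were tested. At the same threshold of limma, 5 were lower (Asb3, Asb7, Rab40c, Spsb1 and Wsb1) and 1 higher (Asb5), and after median centring 2 were lower and 2 higher. Among all genes tested 28.2% were lower and 47.6% passed in either direction, so the 5 lower genes are near the background and the 6 that passed are below it. Asb5, of the ankyrin repeat branch, averaged 219 ± 1.62 TPM without and 256 ± 9.17 TPM with SEMA6A overexpression (SD, n = 3), a level above that of every SOCS member. Rab40c, a small GTPase with a SOCS box, had a log2 fold change of −0.29. The median over the 17 genes was −0.02.

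The genes whose log2(TPM + 1) followed a member most closely over the 6 libraries were, by Pearson correlation, Gsto1 (0.994) and Armcx1 (0.988) for Socs3, Ifngr1 (0.998) and Arhgap28 (0.998) for Socs4, and Slc35e4 (0.997) and Ndufaf2 (0.997) for Socs5, out of 9840 genes compared. These values rest on 6 libraries in 2 groups, were picked as the highest of all genes compared, and were not tested. A correlation above 0.95 was reached by 62 genes for Socs3, 1411 for Socs4 and 351 for Socs5.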
